A study of Rattus norvegicus with 16 samples.

Results

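The comparison is of hippocampal RNA from male Sprague-Dawley rats labelled insusceptible after chronic mild stress with that of unstressed control rats, 4 arrays against 4 of the 16 arrays in the series. The 8 arrays were chosen by the group label alone. Insusceptible rats had lived through 8 weeks of chronic mild stress (CMS, a run of mild and changing stressors meant to blunt reward seeking in rodents). Control rats had no CMS, and otherwise all rats shared strain, sex, a weight of 250 g at purchase, housing and free access to food and water. The remaining 8 arrays come from rats labelled depression-susceptible and anxiety-susceptible after the same 8 weeks, and serve here to set errors and to show where the insusceptible samples differ from other stressed ones. By which behaviour a stressed rat was called insusceptible, and whether 4 arrays stand for 4 animals, the sources do not say. RNA was taken from whole dissected hippocampus, so every cell type in the piece contributes.

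The hippocampus holds granule cells in the dentate gyrus and pyramidal cells in the CA fields, with scattered inhibitory interneurons and glia. It is rich in receptors for corticosterone, the rat's main stress hormone, and takes part in switching the hormone's release off. On its inner face it borders a ventricle that contains choroid plexus, the epithelium that secretes cerebrospinal fluid and makes large amounts of transthyretin. Neurons that have recently been active switch on immediate early genes, many of them through the transcription factor CREB, which binds the cyclic AMP response element.

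Levels are log2 processed signals minus the 75th percentile of the array, so a level of 0 is the brightness that 75% of spots do not exceed, and they compare samples, never one probe with another. The 4 insusceptible arrays were on slide 4, scanned on day 2 with the anxiety-susceptible slide, and the 4 control arrays were split over slides 1 and 2, scanned on day 1. Slide, scan day and group therefore cannot be told apart in a difference between insusceptible and control samples, nor slide and group in one between insusceptible and anxiety-susceptible samples, which share a scan day. Insusceptible arrays were dimmer, with 75th percentiles between 1228.4 and 1256.1 units, against 2862.9 to 3074.3 units on control arrays. No spot was saturated (0 on each of the 16 arrays), and 62.2% to 66.9% of probes were well above background on insusceptible arrays, against 67.8% to 71.8% on control arrays. Arrays of a group on the same slide varied about as little as spots of the same probe within an array: the between-array variance divided by the spot variance was 0.908 for the insusceptible slide, and 0.857 and 0.62 for the control pairs on slides 1 and 2. They were counted as 1 sample each, which leaves 1 insusceptible and 2 control samples. The standard error (SE) of every difference comes from the spread between slides 1 and 2, is assumed to hold for the insusceptible slide, and may be technical. Only the control and depression-susceptible groups supply that spread, and their gaps from slide to slide ran alike (correlation 0.721, 17711 probes). The 2 residual degrees of freedom thus partly repeat each other, and every SE and adjusted p is less certain than 2 independent ones would make it. A difference is called held when limma's adjusted p was under 0.05 both with this scaling and, with the same sign, after quantile normalization, and rises and falls are named for held differences alone.

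Of 8 tested markers that define hippocampal neurons, 7 were well above background on all 8 arrays. The granule cell transcription factor Prox1 was the exception: its probe was well above background on 0 of 4 insusceptible arrays and 2 of 4 control arrays. Neurod6, a transcription factor of pyramidal cells, was at 3.73 to 3.77 on insusceptible arrays and 4.15 to 4.47 on control arrays, and was not held. The glutamate vesicle transporter Slc17a7 and the kinase Camk2a, both abundant in pyramidal and granule cells, differed by -0.23 and -0.47 on the log2 scale, and neither difference was held. Wfs1, a marker of the CA1 field, fell. It stood at 1.99, 2.06, 1.99 and 2.03 on insusceptible arrays, against 3.63, 3.6, 3.85 and 3.29 on control arrays, a difference of -1.58 (SE 0.12, adjusted p = 0.00834). Of 25 tested markers of the dentate gyrus and CA fields, 4 fell and 0 rose, beside 11.7% and 6.86% of all genes. Besides Wfs1 these were Igfbpl1 of immature granule cells (-1.27), Rgs14 of the CA2 field (-0.91) and calretinin, Calb2, of mossy cells and interneurons (-0.70).

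Over all probes the comparison gave many calls. Of 17861 probes with an estimate, 5372 (30.1%) passed the threshold, 2665 (14.9%) higher and 2707 (15.2%) lower in insusceptible samples, and 3464 (19.4%) were held, 1641 (9.19%) higher and 1823 (10.2%) lower. Counted as 11328 gene symbols, 3269 (28.9%) passed and 2106 (18.6%) were held, 777 (6.86%) higher and 1329 (11.7%) lower. The median absolute difference between insusceptible and control samples was 0.383, against 0.136 between the control samples of slides 1 and 2. With the arrays of control slide 1 left out 882 probes were held, and with those of slide 2 left out 1017. Under another background correction (normexp, on the 14 arrays where it could be fitted) with the 75th percentile, 6537 probes passed higher and 3056 lower. With quantile normalization in place of the 75th percentile, 2139 passed higher and 2288 lower on those arrays.

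The scaling set part of the pattern. Dim probes tended to be higher and bright probes lower in insusceptible samples: the median difference was 0.413 among the dimmest eighth of probes and -0.438 among the brightest, with a steady decline from the second eighth on. After quantile normalization the same medians were -0.058 and 0.061. Lists of abundant messengers therefore move with the scaling, and their medians are given both ways. Sizes moved too: of the 162 held genes chosen for naming, 32 differed by over 1.5 times less after quantile normalization, among them Hspd1 (-1.11 and -0.59), Hspe1 (-0.93 and -0.39), Rhob (-0.97 and -0.43), Htr2c (-0.95 and -0.50), Htr4 (1.07 and 0.65) and Htr6 (0.69 and 0.40). Under normexp with quantile normalization on 14 arrays 69 did so, and 12 missed the threshold, among them Nr3c2, Lbp, Rgs14, Grid1, Grm2, Sv2c, Htr4, Htr6 and Psmb10.

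**Figure D1:**
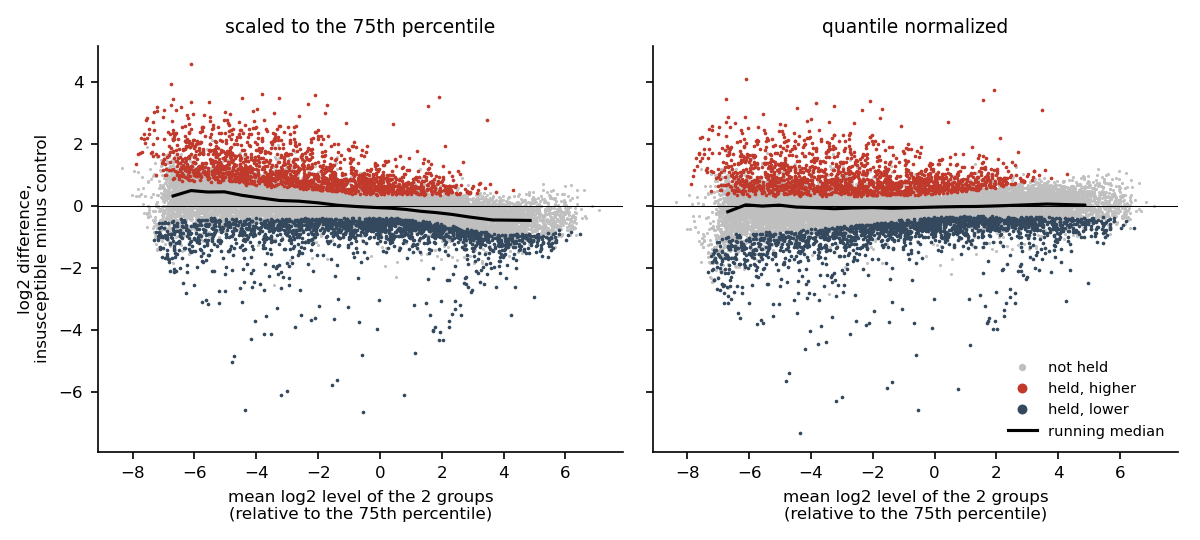
Each point is a probe: the x axis is its mean log2 level over both groups and the y axis the log2 difference, insusceptible minus control, under 75th percentile scaling (left) and quantile normalization (right). Held probes are coloured. The running median tilts from above 0 for dim probes to below 0 for bright probes on the left and lies near 0 on the right. The deepest falls lie far below it in both panels.

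Genes of the choroid plexus were far lower in insusceptible samples. Of 30 markers on the list, 26 had a named probe and 24 were bright enough to test. 20 fell and 1 rose, beside 11.7% and 6.86% of all genes. The median difference of the 24 was -2.99, and -3.06 after quantile normalization, against medians of -0.10 and -0.05 over all symbols. On 21 of the 24 every insusceptible array was below every control array. In a dissected piece, fewer choroid plexus cells and less RNA per cell cannot be told apart.

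The deepest fall was that of Sostdc1, a secreted inhibitor of BMP and Wnt signals. Its level was -3.92, -3.91, -3.79 and -3.84 on insusceptible arrays, against 2.84, 2.82, 2.68 and 2.79 on control arrays. The difference was -6.65, or 100.2-fold lower (SE 0.10, adjusted p = 0.00184). Mfrp, a membrane protein of such epithelia that binds frizzled ligands, was at -2.26, -2.28, -2.36 and -2.27 in insusceptible samples, against 3.87, 3.85, 3.72 and 3.85 in controls, 69.3-fold lower. Claudin 2, the pore-forming tight junction protein Cldn2, was 55.0-fold lower (-5.78, SE 0.09) and the water channel Aqp1 48.7-fold lower (-5.60, SE 0.09).

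Several plexus genes were well above background on all 4 control arrays and on no insusceptible array (0 of 4), so that only a bound can be given, taken against the dimmest signal that counted as well above background on those arrays. Slco1a5, an organic anion carrier, averaged -6.24 in insusceptible samples and -0.16 in controls and was at least 43.3-fold lower. The bicarbonate cotransporter Slc4a5 was at least 14.6-fold lower, the prolactin receptor Prlr at least 11.8-fold lower, and the ageing-related hormone gene Kl at least 1.80-fold lower. Transthyretin itself, the thyroxine carrier Ttr, remained among the brighter signals. Its level was 3.51, 3.53, 3.46 and 3.52 on insusceptible arrays, against 6.63, 6.50, 6.36 and 6.26 on control arrays, 7.62-fold lower (adjusted p = 0.00638).

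The other members that fell span the plexus's work. They include the potassium channel Kcnj13 (-4.81) and the channel subunit Kcne2 (-3.04), the folate receptor Folr1 (-3.62), the lysophospholipase Enpp2 (-2.60), the calcium channel Trpv4 (-2.18) and the cell-cycle inhibitor Cdkn1c (-1.35). Lipopolysaccharide binding protein, Lbp, rose by 0.89 (SE 0.10). Cldn1, the copper carrier Slc31a1 and the carbonic anhydrase Car12 were not held, with differences of -1.26, -0.75 and -0.15. Without the control arrays of slide 1, 20 members were held, and without those of slide 2, 21.

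**Figure D2:**
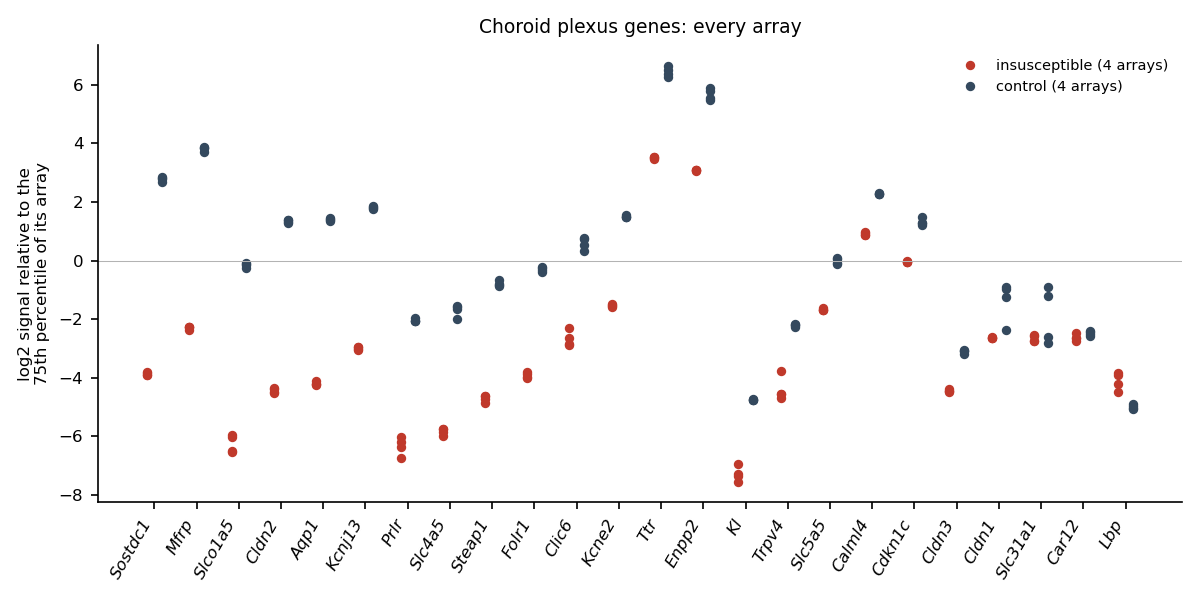
Each point is an array: log2 level relative to the array's 75th percentile for the 24 tested choroid plexus genes, insusceptible arrays left and control arrays right of each pair. Ttr lies near 3.5 on insusceptible arrays against above 6.2 on control arrays, Sostdc1 shows the widest gap, and Cldn1, Slc31a1 and Car12 overlap or spread with the control slide.

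The plexus signal also separated stressed groups. Averaged over the 24 genes, arrays lay between -3.02 and -2.89 in insusceptible samples, -2.69 and -2.64 in depression-susceptible, -1.28 and -1.21 in anxiety-susceptible, and 0.07 and 0.22 in control samples. Not every member kept this order: Ttr was at 6.80 to 7.03 on anxiety-susceptible arrays, above the 6.26 to 6.63 of control arrays. Insusceptible and anxiety-susceptible samples are 1 slide each, so calls between them rest wholly on the spread between slides 1 and 2 in the other groups and have no replicate check. With that limit, 7 members of the list were held lower in insusceptible than in anxiety-susceptible samples. None (0 of 24) was held against depression-susceptible samples. Over all genes, 13 of 11344 (0.115%) were held against anxiety-susceptible samples, 11 lower (0.0970%) and 2 higher (0.0176%). The 11 include Sostdc1 (-4.59), Slco1a5 (-3.94), Mfrp (-3.59), Cldn2 (-3.15), Prlr (-3.12), Kcnj13 (-3.02) and Aqp1 (-3.0). The enzyme Pon1 (-3.66) and chondromodulin, Cnmd (-3.41), were also among them, as were Vegfb and Atf3, described below. The 2 higher genes were the interferon-induced Ifit1 (2.96) and the aldehyde oxidase Aox1 (2.31).

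Neighbouring barrier tissues moved differently. Ependymal cells line the ventricle with beating cilia. Of 14 tested genes of motile cilia 5 fell and 0 rose, beside 11.7% and 6.86% of all genes. The radial spoke gene Rsph4a was lower by 1.91 (SE 0.14), with levels of -2.38 to -2.26 on insusceptible arrays and -0.53 to -0.33 on control arrays. Ccdc40 and Dnai2, both needed to build the dynein-driven axoneme, differed by -1.32 and -1.29. Of 12 tested meningeal and fibroblast genes, 5 rose and 2 fell, beside 6.86% and 11.7% of all genes. The growth factor Igf2 and its binding protein Igfbp2, made by choroid plexus as well as meninges, were 5.41-fold and 5.13-fold lower. The GABA and taurine carrier Slc6a13 was 4.41-fold higher, at -1.88, -1.63, -1.91 and -1.88 on insusceptible arrays, against -3.92, -3.81, -4.05 and -4.09 on control arrays. Nupr1 (1.64), the organic anion carrier Slc22a6 (1.42), the retinoic acid enzyme Aldh1a2 (1.09) and the collagen Col3a1 (0.66) also rose, while the fibroblast proteoglycans Dcn (-0.33) and Lum (-0.32) were not held. With either control slide left out, 6 meningeal and 4 ciliary members were held.

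Among red cell messengers the globins were higher than in controls. Of 11 tested, 5 rose, all globin genes, and 1 fell, beside 6.86% and 11.7% of all genes. On 3 of the 11 every insusceptible array was below every control array. The mean of the 11 after quantile normalization overlapped, at 7.36 to 7.49 on insusceptible arrays and 7.28 to 7.41 on control arrays. The beta globin Hbb was at 0.21, 0.27, 0.25 and 0.18 in insusceptible samples, against -0.66, -0.68, -0.69 and -0.73 in controls, 1.89-fold higher. The alpha globins Hba-a1 and Hba-a2 rose by 1.33 and 1.44, but differed by 0.46 and 0.38 under normexp with quantile normalization, and the alpha globin chaperone Ahsp was 2.18-fold lower. Globin genes share much sequence, so these probes need not report separate messengers. Depression-susceptible samples stood apart in these genes: 10 of 11323 genes (0.0883%) were held between insusceptible and depression-susceptible samples, 9 lower (0.0795%) and 1 higher (0.00883%), and 6 of the 10 were globins, with Hbb 3.37 lower in insusceptible samples. Without control slides 1 and 2 in turn, 2 and 3 red cell members were held against control.

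Few glial and vascular markers were held, beside 18.6% of all genes, which does not show that the others were unchanged. Under the first scaling every insusceptible array lay below every control array for 13 of 24 microglial and 9 of 17 astrocyte genes. After quantile normalization the mean over astrocyte genes was higher, at 13.919 to 13.942 on insusceptible arrays and 13.807 to 13.854 on control arrays. The mean over microglial genes was still lower, at 10.912 to 10.928 on insusceptible arrays and 11.076 to 11.116 on control arrays. Microglia had 3 of 24 members lower and 0 higher: Itgam (-1.08), the purinergic receptor P2ry12 (-0.64, with no estimate on insusceptible array 2, and higher by 0.56 in the deposited table) and Fcgr3a (-0.43). Astrocytes had 1 of 17 higher, the connexin Gjb6 (0.67), and 1 lower, Lcn2 (-0.47), while Gfap differed by -0.31 and by 0.10 after quantile normalization, neither past the threshold. Of 18 myelin genes only Ermn fell (-0.71), and of 20 vessel genes only the pericyte protein Vtn rose (0.93). Oligodendrocyte precursors had 0 of 7 held. Striatal, thalamic and cortical markers, which stand for regions that border the hippocampus or lie near it, had 2 of 14 held lower and 1 higher: among them the striatal dopamine receptor gene Drd1 (-0.87) fell, and Tnnt1 (0.84), which marks thalamus, rose. With either control slide left out, 1 microglial, 1 neighbouring-region, 0 astrocyte and 0 myelin members were held.

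Immediate early genes were lower. Of 24 tested, 10 fell and 1 rose, beside 11.7% and 6.86% of all genes, and on 20 of the 24 every insusceptible array was below every control array. The median difference was -0.54, and -0.52 after quantile normalization. Averaged over the 24 genes, arrays lay between -0.88 and -0.84 in insusceptible samples, -0.40 and -0.26 in depression-susceptible, -0.43 and -0.37 in anxiety-susceptible, and -0.39 and -0.32 in control samples, so that the insusceptible arrays were the lowest and the other 3 groups overlapped. Gene by gene, 0 of 24 were held against depression-susceptible samples, and 1, Atf3, against the single anxiety-susceptible slide. Atf3, a stress-induced transcription factor, stood at -3.44, -3.46, -3.51 and -3.33 in insusceptible samples, against -2.48, -2.47, -2.45 and -2.45 in controls, 1.96-fold lower (adjusted p = 0.0128). In anxiety-susceptible samples, 1 slide against 1, Atf3 averaged -0.94, a difference of -2.49. Egr2, a zinc finger factor, was at -1.96, -1.93, -2.06 and -2.12 in insusceptible samples, against -1.21, -1.09, -1.19 and -1.18 in controls, 1.81-fold lower. The prostaglandin enzyme Ptgs2 (-0.79), Egr4 (-0.79), Junb (-0.72), the orphan nuclear receptor Nr4a1 (-0.71), Ier2 (-0.58), Btg2 (-0.52) and Klf4 (-0.50) fell as well.

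Not every member did so. Ier3 rose, by 0.68. Fos was at -3.96 to -3.85 on insusceptible arrays and -3.69 to -3.45 on control arrays, a difference of -0.32 (SE 0.15, adjusted p = 0.178). Arc, which acts at recently active synapses, differed by -0.44 (adjusted p = 0.0923), Egr1 by -0.65 and Jun by -0.56, and none of these was held. The count depended on having both control slides: without slide 1 only 1 member was held, and without slide 2 only 2.

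The promoters of 4 genes are shown, chosen after their values were seen, because these genes moved (Dusp1, Btg2 and Nr4a1 lower, Sik1 higher) and the hippocampal response to activity runs in part through CREB. Each is 300 bases, 250 before the RefSeq start and 50 after, on assembly GRCr8, 5′ to 3′ on the gene's strand. Capitals mark the cyclic AMP response element TGACGTCA or its 5-letter part TGACG, which reads CGTCA on the other strand.
Dusp1: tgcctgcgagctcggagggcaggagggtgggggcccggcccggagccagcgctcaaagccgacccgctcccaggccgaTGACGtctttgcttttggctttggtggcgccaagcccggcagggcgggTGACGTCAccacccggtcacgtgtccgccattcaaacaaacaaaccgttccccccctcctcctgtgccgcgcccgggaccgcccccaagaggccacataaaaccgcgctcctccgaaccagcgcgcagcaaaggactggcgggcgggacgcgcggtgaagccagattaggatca
Btg2: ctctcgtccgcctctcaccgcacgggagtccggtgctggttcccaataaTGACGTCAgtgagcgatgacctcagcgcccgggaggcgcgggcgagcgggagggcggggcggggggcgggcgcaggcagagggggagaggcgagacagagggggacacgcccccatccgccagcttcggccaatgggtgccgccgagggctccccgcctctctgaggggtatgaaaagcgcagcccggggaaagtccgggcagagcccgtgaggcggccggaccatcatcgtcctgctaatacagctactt
Nr4a1: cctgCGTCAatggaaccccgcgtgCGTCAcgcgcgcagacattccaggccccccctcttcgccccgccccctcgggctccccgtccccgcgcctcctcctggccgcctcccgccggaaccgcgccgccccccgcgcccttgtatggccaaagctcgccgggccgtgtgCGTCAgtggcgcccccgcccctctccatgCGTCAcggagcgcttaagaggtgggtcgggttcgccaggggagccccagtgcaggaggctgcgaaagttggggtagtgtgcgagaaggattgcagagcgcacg
Sik1: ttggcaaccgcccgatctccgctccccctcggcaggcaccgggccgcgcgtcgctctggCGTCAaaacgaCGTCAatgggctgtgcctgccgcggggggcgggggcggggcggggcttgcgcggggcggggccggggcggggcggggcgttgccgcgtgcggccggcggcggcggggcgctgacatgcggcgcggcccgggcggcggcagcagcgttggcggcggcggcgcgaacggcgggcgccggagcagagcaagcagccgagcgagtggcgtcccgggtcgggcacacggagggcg
These windows lie at chr10:17184603-17184902 (plus strand), chr13:48087641-48087940 (minus), chr7:134259888-134260187 (plus) and chr20:9958597-9958896 (minus). A full element counts as 2 of the 5-letter matches, 1 on each strand. Dusp1 holds 1 full element among 3 such matches and Btg2 holds 1 among 2. Nr4a1 holds 4 of the 5-letter matches and 0 full elements, and Sik1 holds 2 and 0. Of 33469 RefSeq promoters of this length, 1.829% hold the full element and 21.205% the shorter one. Of 18 promoters matched to the immediate early list, 5 hold the full element and 14 the shorter one, and of 19 matched to the list of MAP kinase feedback genes and salt-inducible kinases, 1 and 9. These are counts of promoters, not of genes, since some genes have several. Crem, which was not held (0.03), gives more than 1 of the 5, and Dusp1 is on both lists. Ptgs2, Klf4, Dusp6 and Spry4, which fell, hold 0 of either.

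Genes of the MAP kinase cascade and its brakes moved in both directions. Of 18 tested, 3 rose and 7 fell, beside 6.86% and 11.7% of all genes. Dusp1, a phosphatase that switches MAP kinases off and is induced by glucocorticoids, was at 0.90, 0.95, 0.86 and 0.86 in insusceptible samples, against 1.73, 1.75, 1.77 and 1.81 in controls, 1.83-fold lower. The kinase Erk1, Mapk3, was 2.57-fold lower, and the Erk phosphatase Dusp6 1.89-fold lower. Dusp2 (-0.66), Dusp16 (-0.48) and the feedback inhibitor Spry4 (-0.47) fell too. The salt-inducible kinase Sik1, which restrains CREB by keeping its coactivators out of the nucleus, rose. Its level was -4.13, -4.16, -4.12 and -4.03 on insusceptible arrays, against -6.77, -7.22, -6.73 and -6.79 on control arrays, a difference of 2.77 (SE 0.14, adjusted p = 0.00565).

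The control signal of Sik1 was near background, being well above it on 1 of 4 control arrays. Under normexp with quantile normalization its difference was 0.91. Crtc2, one of the coactivators that Sik1 phosphorylates, was at -1.56, -1.62, -1.61 and -1.51 in insusceptible samples, against -2.52, -2.63, -2.54 and -2.53 in controls, 1.98-fold higher. Dusp5 rose by 0.50, and Creb1 itself differed by -0.20. Without control slides 1 and 2 in turn, 1 and 2 of these members were held.

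Of 17 genes of the corticosteroid and CRH system, 4 fell and 0 rose, beside 11.7% and 6.86% of all genes. The mineralocorticoid receptor Nr3c2, the high-affinity corticosterone receptor of hippocampal neurons, was at 3.01, 2.99, 2.96 and 2.93 in insusceptible samples, against 3.99, 3.93, 3.73 and 3.81 in controls, 1.85-fold lower (adjusted p = 0.0193). After quantile normalization the difference was -0.40. The glucocorticoid receptor Nr3c1 differed by -0.23 (adjusted p = 0.183) and, after quantile normalization, by 0.15. Vasopressin, Avp, was 3.58-fold lower, at 2.58 to 2.71 on insusceptible arrays and 4.17 to 4.78 on control arrays, and the opioid and corticotropin precursor Pomc 1.48-fold lower. Hsd11b2, which inactivates corticosterone, was well above background on 0 of 4 insusceptible arrays and at least 1.15-fold lower, a direction that turned under normexp with the 75th percentile. CRH itself, Crh, differed by -0.61 (SE 0.18, adjusted p = 0.0733).

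The receptor chaperone Fkbp5 was not held, since it missed the threshold under the first scaling. Its levels were 3.09, 3.10, 3.07 and 3.07 on insusceptible arrays, against 2.62, 2.62, 2.76 and 2.71 on control arrays, a difference of 0.40 (SE 0.13, adjusted p = 0.0895), and of 0.77 (adjusted p = 0.0369) after quantile normalization. Of 31 genes that glucocorticoids are known to induce, 8 fell and 1 rose, beside 11.7% and 6.86% of all genes. Nfkbia, which holds NF-kappaB in the cytoplasm, was at 0.37, 0.40, 0.37 and 0.41 in insusceptible samples, against 1.79, 1.56, 1.55 and 1.73 in controls, 2.41-fold lower. Rhob (-0.97), Txnip (-0.94), metallothionein Mt1 (-0.85) and the leucine zipper gene Tsc22d3 (-0.58) fell, and the lipase Pnpla2 rose by 0.54. Sgk1 (-0.55), Per1 (0.50) and Zbtb16 (0.66) were not held. Of the corticosteroid and the glucocorticoid-induced lists, 1 member each was held without control slide 1, and 2 and 1 without slide 2.

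Among 25 neurotrophins and growth factors 2 rose and 3 fell, near the 18.6% of all genes held. Brain-derived neurotrophic factor, Bdnf, was at 0.47, 0.52, 0.51 and 0.53 in insusceptible samples, against 1.42, 1.38, 1.52 and 1.65 in controls, 1.98-fold lower (SE 0.16, adjusted p = 0.0258). Its receptor TrkB, Ntrk2, was at 3.54 to 3.62 on insusceptible arrays and 3.28 to 3.45 on control arrays and was not held (0.22, adjusted p = 0.251). Anxiety-susceptible samples had a Bdnf mean of 0.17 and depression-susceptible samples 0.95 and 1.21. Vegfb, a growth factor of vessels and neurons, was well above background on 0 insusceptible and 4 control arrays, averaged -5.89 and -2.20 there, and was at least 10.5-fold lower. It was also held lower than in depression-susceptible (-3.53) samples and than on the single anxiety-susceptible slide (-2.87). Vegfa, which drives vessel growth, rose by 0.63 (SE 0.13, adjusted p = 0.0358), and all 5 of its probes gave between 0.59 and 0.66. Egf rose by 0.89 and Tgfa fell by 0.72. With either control slide left out, Bdnf missed the threshold and 1 member of the list was held.

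Of 24 genes of GABA synthesis, transport and reception 6 fell and 1 rose, beside 11.7% and 6.86% of all genes, with medians of -0.42 and, after quantile normalization, -0.30. Gad2, the GABA-making enzyme of axon terminals, was at -2.06, -2.14, -2.11 and -2.12 in insusceptible samples, against -0.90, -0.91, -0.78 and -0.96 in controls, 2.33-fold lower (adjusted p = 0.00827). Gad1, its partner in the cell body, was at 4.73, 4.84, 4.80 and 4.83 in insusceptible samples, against 4.68, 4.70, 4.53 and 4.48 in controls, and was not held (0.20, and 0.73 after quantile normalization). Of the receptor subunits, Gabrg1 (-1.05) and Gabra4 (-0.90) fell and Gabrb1 rose by 0.43. The inhibitory synapse gene Nlgn2 (-0.58), which organises receptors under the terminal, fell too.

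Of 22 interneuron genes 5 fell and 0 rose, beside 11.7% and 6.86% of all genes. Neuropeptide Y, Npy, an anticonvulsant and anxiety-lowering peptide of dentate interneurons, was at 3.16, 3.13, 3.10 and 3.13 in insusceptible samples, against 4.66, 4.70, 4.51 and 4.44 in controls, 2.73-fold lower (SE 0.13, adjusted p = 0.0113). Prepronociceptin, Pnoc (-0.73), and the cannabinoid receptor Cnr1 of cholecystokinin cells (-0.59) also fell. Somatostatin, Sst, passed the threshold under the first scaling (-0.61, adjusted p = 0.0436) but differed by -0.08 after quantile normalization. Parvalbumin, Pvalb (-0.17), and Vip (-0.16) were not held. Without control slide 1 or 2, 1 member of the interneuron list was held, and 1 and 2 of the GABA list, with Npy and Gad2 past the threshold each time.

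**Figure D3:**
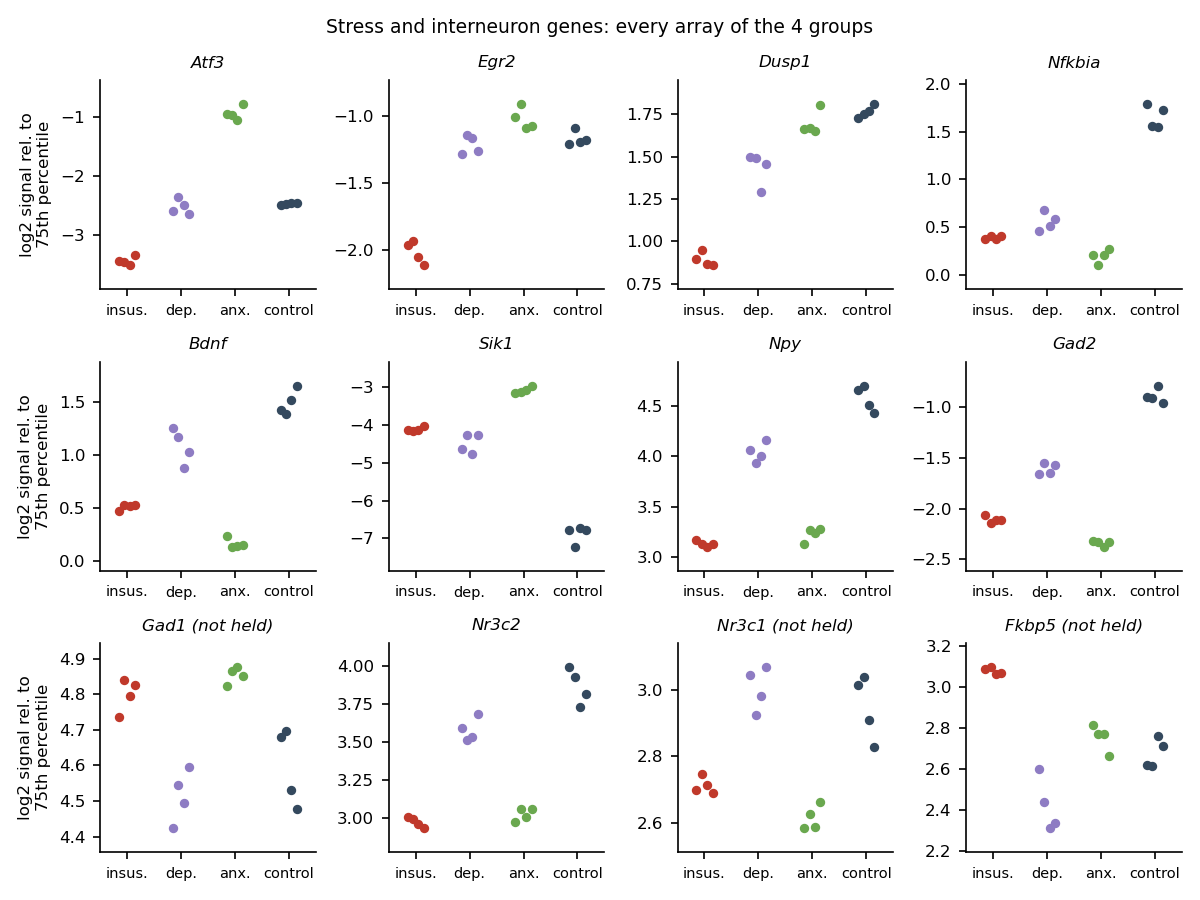
Each point is an array: log2 level relative to the 75th percentile for 12 genes in insusceptible, depression-susceptible, anxiety-susceptible and control samples, each panel with its own y axis that does not start at 0. Atf3, Egr2 and Dusp1 are lowest in insusceptible samples, Npy, Gad2, Bdnf and Nr3c2 lie below control in all 3 stressed groups, Sik1 lies above control in all 3, and Nr3c1 spans only 2.58 to 3.07.

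Among 26 glutamate receptor genes, 2 rose and 3 fell, a share near the 18.6% of all genes held. The kainate receptor subunit Grik5 was 3.88-fold lower. Its slide 1 and slide 2 means were 4.93 and 4.41 among control and 4.39 and 3.77 among depression-susceptible samples, and the part of slide was not tested. The AMPA receptor subunit Gria4 was 1.76-fold lower. Grid1 (-0.83, well above background on 0 insusceptible and 2 control arrays) was lower near background, a direction that turned under normexp with the 75th percentile. The metabotropic receptor Grm2 was at least 2.89-fold higher, being well above background on 3 insusceptible and 0 control arrays. The NMDA receptor subunits Grin1 (0.49) and Grin2b (0.23) were not held. Of 27 postsynaptic genes 2 rose and 4 fell, beside 6.86% and 11.7% of all genes. The scaffold PSD-95, Dlg4, was at 3.40, 3.49, 3.51 and 3.52 in insusceptible samples, against 4.56, 4.47, 4.30 and 4.26 in controls, 1.89-fold lower, and -0.38 on the log2 scale after quantile normalization. Camk2b (-0.82), the adhesion gene Nlgn1 (-0.77) and Homer3 (-0.48, turned under normexp with the 75th percentile) fell, and Baiap2 rose by 0.64.

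The exchange factor Rasgrf1, which links NMDA receptors to Ras, rose most of this group. It was at -2.54, -2.58, -2.68 and -2.57 in insusceptible samples, against -5.69, -5.73, -5.86 and -5.33 in controls, 8.36-fold higher (SE 0.16, adjusted p = 0.00565), and 1.62 on the log2 scale under normexp with quantile normalization. Of 34 genes of vesicle release 4 fell and 1 rose, under the 18.6% of all genes held. The calcium sensor Syt1 was at 0.46, 0.53, 0.57 and 0.53 in insusceptible samples, against 1.83, 1.86, 1.72 and 1.67 in controls, 2.37-fold lower. Synaptophysin, Syp, was 2.41-fold and the active-zone gene Pclo 2.05-fold lower, and Sv2c rose by 0.86. The other tested probes of Gria4 and Pclo were not held. Of the glutamate receptor, postsynaptic and vesicle lists, 1 member each was held without control slide 1, and 2, 1 and 1 without slide 2.

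Receptors for serotonin moved by subtype. The stimulatory receptor Htr2a was at -5.38 to -4.63 on insusceptible arrays, of which 2 were well above background, and at -3.96 to -3.78 on control arrays, 2.37-fold lower. Htr2c (-0.95), also abundant in choroid plexus, Htr1b (-0.78, turned under normexp with the 75th percentile) and Htr5a (-0.72) fell, and Htr4 (1.07) and Htr6 (0.69), which raise cyclic AMP, rose. The inhibitory receptor Htr1a differed by -0.02. Beside 11.7% and 6.86% of all genes, 8 of 35 monoamine and acetylcholine genes fell and 3 rose in all. The others were the dopamine receptor Drd1, the noradrenaline enzyme Dbh (-0.43), Adra1b (-0.45) and the muscarinic receptor Chrm3 (-0.75), which fell, and the beta adrenoceptor Adrb1 (0.93), which rose. Without control slides 1 and 2 in turn, 1 and 2 were held.

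Of 34 potassium channel genes 4 fell and 3 rose, near the 18.6% of all genes held. The background channel Kcnk1 was 2.39-fold lower, and Kcnj3, the GIRK1 subunit through which inhibitory receptors act, 1.72-fold lower. Kcnb2 (-0.74) and Kcnd3 (-0.48) fell, and the sodium-activated Kcnt1 (1.08) and the M-current subunit Kcnq3 (0.49) rose. Among 21 sodium and calcium channel genes 3 fell and 0 rose, beside 11.7% and 6.86% of all genes. Scn8a (-0.78) and Cacnb4 (-0.56) were among the 3. Of 16 opioid and endocannabinoid genes the 3 held, near the 18.6% of all genes, were Cnr1, Pnoc and Pomc, which fell as already described. None of these 3 lists kept a held member (0 each) without control slide 1 or without slide 2.

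Of 27 cytokine and complement genes 6 fell and 1 rose, beside 11.7% and 6.86% of all genes, while 7 passed lower and 6 higher under the first scaling alone. The chemokine Ccl5 was well above background on 0 insusceptible and 4 control arrays and was at least 1.79-fold lower. Cxcl10 was 2.06-fold and Il6 2.31-fold lower, Il6 being well above background on 1 insusceptible array. The directions of Ccl5 and Il6 turned under normexp with the 75th percentile. Tnf (-0.39) and Ccl2 (-0.53) fell, and complement C4a rose by 0.70. Of 33 interferon and antigen presentation genes 5 fell and 2 rose, beside the same 11.7% and 6.86%, in opposite directions within the interferon-induced set. Ifi27 was at 1.48, 1.51, 1.53 and 1.40 in insusceptible samples, against 3.29, 3.45, 3.42 and 3.48 in controls, 3.81-fold lower (adjusted p = 0.00565). Ifi44 and Ifit1 were 2.81-fold and 2.17-fold higher. The class I gene RT1-A2 (-1.39), the peptide carrier Tap1 (-0.81) and the immunoproteasome subunit Psmb10 (-0.90, with no estimate on control array 4) fell, and Isg15 fell by 0.47. Of the cytokine list 3 members were held with either control slide left out, and of the interferon list 2 without slide 1 and 3 without slide 2.

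Genes of protein turnover depended on the scaling. The 41 tested proteasome genes had a median of -0.51, and -0.20 after quantile normalization. Of the 41, 10 were held lower and 0 higher, beside 11.7% and 6.86% of all genes. The activator Psme3 was 3.98-fold lower, the core subunits Psmb3 and Psmb4 3.44-fold and 2.61-fold lower, and Psma2 2.5-fold lower. Psmb4 was at 3.86, 3.85, 3.82 and 3.85 in insusceptible samples, against 5.27, 5.20, 5.30 and 5.14 in controls. For 71 ribosomal protein genes the median was -0.49, but -0.0043 after quantile normalization, with 6 held lower and 0 higher, Rps13 by 1.13. For 68 genes of oxidative phosphorylation the medians were -0.42 and -0.02, with 5 held lower and 1 higher. Ndufb3 (-1.06) fell most of those and Ndufs7 rose by 0.45. Both shares of held genes, 6 of 71 and 6 of 68, are under the background of 18.6%. With either control slide left out, 0 proteasome and 0 ribosomal genes were held, and 1 and 0 of oxidative phosphorylation.

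Of 29 heat shock genes 6 fell and 1 rose, beside 11.7% and 6.86% of all genes. The small heat shock gene Hspb1 was at 2.54, 2.45, 2.4 and 2.4 in insusceptible samples, against 5.26, 5.23, 4.81 and 4.91 in controls, 6.08-fold lower. Its slide 1 and slide 2 means were 5.25 and 4.86 among control and 4.66 and 3.95 among depression-susceptible samples. The part that slide played in this fall was not tested. The mitochondrial chaperonin pair Hspd1 and Hspe1 fell by 1.11 and 0.93, and the lens crystallin and glial chaperone Cryab rose by 0.55. In the endoplasmic reticulum 5 of 25 genes fell and 1 rose, beside the same shares. Hsp90b1 (-1.36), Herpud1 (-0.96), Sel1l (-0.58), Canx (-0.51) and Wfs1 fell, and the disulfide isomerase Pdia2 rose. Stress sensors and effectors of that compartment, Xbp1 (0.10), Atf4 (-1.01) and Ddit3 (-0.32), were not held. With either control slide left out, 1 heat shock gene and 2 endoplasmic reticulum genes were held. Of 16 clock genes 1 fell, the kinase Csnk1d (-1.12), under the 11.7% of all genes. Of 27 histone and DNA modifying enzymes 1 rose, under the 6.86% of all genes. It was the deacetylase Hdac10, at 0.57, 0.58, 0.52 and 0.54 in insusceptible samples, against -0.61, -0.62, -0.68 and -0.64 in controls, 2.28-fold higher.

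Of 29 collagen, laminin and integrin genes 8 rose and 2 fell, beside 6.86% and 11.7% of all genes. The fibrillar collagen Col5a1 was 6.52-fold higher, at -3.16, -3.23, -3.22 and -3.17 in insusceptible samples, against -5.87, -6.03, -5.73 and -5.97 in controls. Col11a2 was 3.51-fold and Col2a1 2.44-fold higher, both known from cartilage, and Col23a1 (1.1), the basement membrane collagen Col4a1 (0.88), fibronectin Fn1 (0.68), Col3a1 and Itgb4 (0.57) rose. Col8a1 fell, at -4.36 to -4.16 on insusceptible arrays and -2.95 to -2.76 on control arrays, and the leukocyte integrin Itgb2 fell by 0.57. Without control slides 1 and 2 in turn, 3 and 4 were held.

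**Figure D4:**
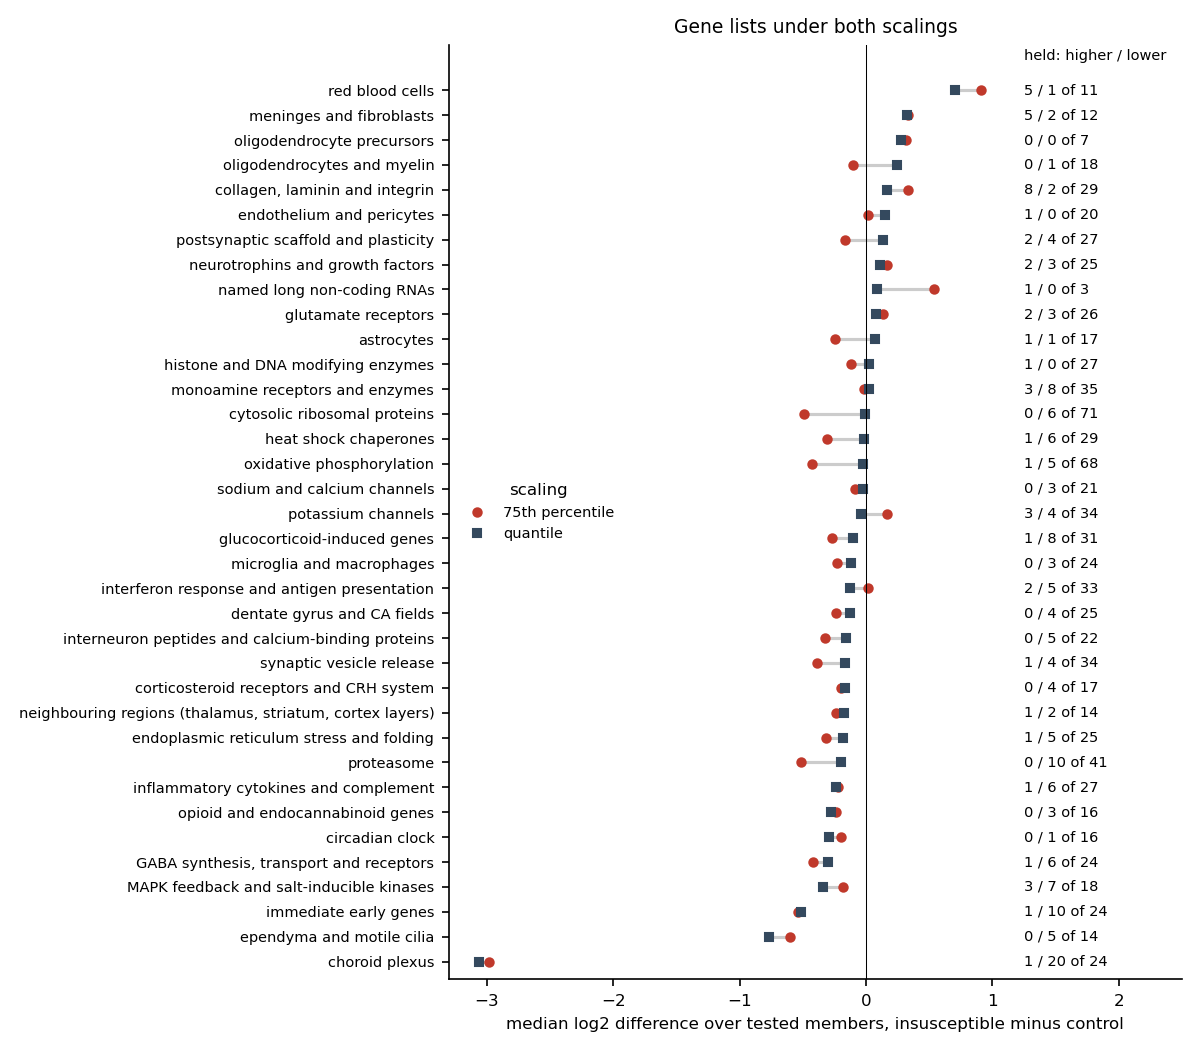
For each of 36 gene lists, the x axis gives the median log2 difference over its tested members, insusceptible minus control, under 75th percentile scaling (circles) and quantile normalization (squares), with counts of held members at the right. Choroid plexus stands at -2.99 and -3.06, immediate early genes at -0.54 and -0.52, and red blood cells at 0.91 and 0.71, while ribosomal, proteasome and oxidative phosphorylation genes move towards 0 under quantile normalization.

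The largest rises were of dim probes. Among the 15 largest, Pdia2 was at least 3.52-fold, the class I histocompatibility gene RT1-M1-4 at least 4.67-fold, the T cell receptor Tnfrsf4 (OX40) at least 4.74-fold, the mitochondrial membrane protein Sfxn2 at least 3.29-fold and the scaffold Mpp4 at least 2.25-fold higher, Mpp4 being well above background on only 1 of 4 insusceptible arrays. Each of these 5 was well above background on 0 control arrays. DNA polymerase theta, Polq, averaged -4.44 in insusceptible samples and -7.80 in controls and was well above background on 1 control array. Ints13, a subunit of the Integrator complex, was measured on all 8 arrays, at -2.33, -2.38, -2.36 and -2.36 in insusceptible samples, against -5.13, -5.21, -5.09 and -5.16 in controls, 6.91-fold higher (adjusted p = 0.00462). Haptoglobin, Hp, which binds free haemoglobin, was at -1.91, -1.91, -1.85 and -1.91 in insusceptible samples, against -4.26, -4.23, -4.32 and -4.33 in controls, 5.23-fold higher. The rest were Rasgrf1, Sik1, Col5a1, Bbx (2.44), the autophagy gene Uvrag (2.37), Dhrsx (2.35) and the tRNA methylase Trmt1 (2.32). Under normexp with quantile normalization all 15 were smaller, between 0.58 and 1.62. None of the 15 was held against depression-susceptible or anxiety-susceptible samples. Rasgrf1 averaged -2.59 in insusceptible samples, -3.16 and -2.88 on depression-susceptible slides 1 and 2, -2.78 in anxiety-susceptible samples and -5.65 in controls. Polq lay further apart, at -6.98 and -7.55 on depression-susceptible slides 1 and 2 and -6.99 in anxiety-susceptible samples.

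The 15 largest falls were mostly genes of the plexus. Of these, 8 were list members, from Sostdc1 to Slc4a5. Not on the list were the amino acid transporter partner Cltrn (at least 47.7-fold lower), Pon1, an antioxidant enzyme carried on lipoproteins (at least 9.95-fold), the adipocyte hormone gene Adipoq (at least 9.80-fold) and the retinal lipid transporter Abca4 (-4.12, well above background on 1 insusceptible array). The RNA exosome subunit Exosc3 was at -0.02, -0.17, -0.06 and -0.07 in insusceptible samples, against 4.34, 3.62 and 3.59 on the 3 control arrays with a value, 16.6-fold lower, in a fit without a value for depression-susceptible slide 2. The GABA receptor subunit Gabrq was 16.5-fold lower, at -0.14, -0.32, -0.31 and -0.47 in insusceptible samples, against 3.92, 3.56 and 3.52 on 3 control arrays. The adhesion receptor Adgrf3 was 15.7-fold lower. Under normexp with quantile normalization the 15 falls lay between -5.91 and -2.61.

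Gabrq, chosen after its values were seen, had company. The 9 genes whose levels over the 6 samples ran closest to parallel with it were Parp3, Adgrf3, Egfl8, Rapsn, Scrn2, Adam7, Inpp5k, Notum and Slc36a3, with root mean square distances of 0.099 to 0.426 log2 units after centring. Parp3 is a DNA repair polymerase and Rapsn clusters acetylcholine receptors at the muscle endplate. Because they were chosen on these samples for running parallel to a large fall, their own differences, -3.98 to -3.06, and their order over the slides follow from the choice. Gabrq averaged -0.31 on the insusceptible slide, 0.92 on the anxiety-susceptible slide, 2.60 and 3.38 on depression-susceptible slides 2 and 1, and 3.54 and 3.92 on control slides 2 and 1. Slide 1 lay above slide 2 for Gabrq within both groups that used them, by 0.79 among depression-susceptible and 0.38 among control samples. More widely, among genes held lower the control level was higher on slide 1 for 69.4%, against 42.0% of genes held higher and 58.3% of genes not held. The part that slide played in these falls was not tested.

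**Figure D5:**
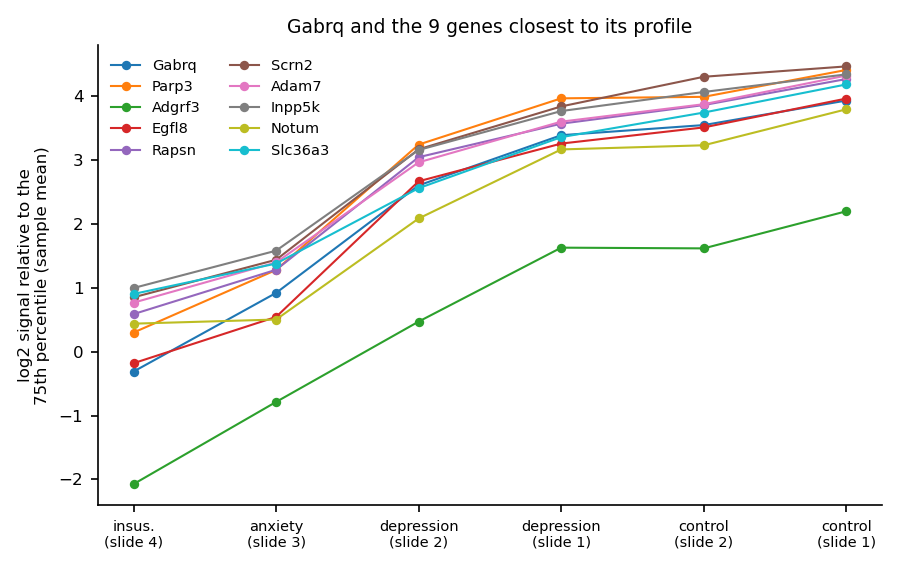
Each line is a gene: log2 level relative to the 75th percentile in each of the 6 samples, from the insusceptible slide at the left to control slide 1 at the right, with the depression- and anxiety-susceptible slides between. The 10 lines are lowest in the insusceptible sample, and slide 1 lies above slide 2 in control and in depression-susceptible samples.

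Of 1100 tested probes with a RefSeq non-coding target, 103 (9.36%) were held higher and 53 (4.82%) lower, against 871 (7.0%) and 1428 (11.5%) of 12446 messenger probes. Probes with other target names, most of them transcripts without a RefSeq number, had 1009 of 4315 held (23.4%), 667 (15.5%) higher and 342 (7.93%) lower. Few could be named: 20 non-coding probes matched a symbol. The 5 largest rises held among RefSeq non-coding probes, none with a symbol, were of 2.52 to 2.91 log2 units and the 5 largest falls, also without one, of -2.61 to -1.46. The brightest of these 10 was at 4.67, 4.63, 4.61 and 4.60 on insusceptible arrays, against 6.53, 6.40, 6.13 and 5.97 on control arrays, 3.10-fold lower (SE 0.31). Of the listed long non-coding RNAs 3 were tested, and Gas5, known in human cells as a decoy for the glucocorticoid receptor, rose. It was at 1.13, 1.17, 1.14 and 1.09 in insusceptible samples, against 0.22, 0.12, 0.44 and 0.49 in controls, 1.76-fold higher (SE 0.20, adjusted p = 0.0494). H19 (0.31) and Rpph1 (0.54) were not held, and Gas5 missed the threshold with either control slide left out.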

How the data were processed

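Hippocampal RNA of 4 labelled groups was hybridised to 16 Agilent arrays in 1 colour. Per the labels' protocols, rRNA was depleted before random-primed labelling along whole transcripts. Per the file headers, Agilent Feature Extraction 11.0.1.1 made each intensity value, subtracting background within an array without scaling arrays to each other. The authors' deposited log2 table, with column medians of 7.486 to 7.49 and correlations of 0.998 or more with the scanner's log2 signals, was an alternative for 24529 probes. It runs in the same direction on an equalized log2 scale, and how it was normalized is not stated.

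Control and outlier spots were left out, spots of a probe averaged, and the log2 signal lowered by the array's 75th percentile. Tests covered 17883 of 24684 probes, those well above background on 4 or more arrays, and 22 of them gave no estimate here. Symbols came from matching target names to the RefSeq gene table of assembly GRCr8 (14274 of 15321 messenger probes matched). For several probes of a symbol the brightest was used, and no named gene had probes of opposite sign (0 of 7). Arrays of a group on a slide were averaged to 1 sample, giving 6 samples and 2 residual degrees of freedom, which were not independent. Group means were fitted with limma 3.58.1 in R 4.3.3 (two-sided, Benjamini-Hochberg over all probes tested, threshold 0.05), after a test on simulated data. That test called 0% of 100 simulated 1.5-fold changes and 25% of 100 simulated 3-fold changes, with 1 unchanged probe called. A difference that was not called may therefore still be real. The simulation changed few of its 17883 probes and drew noise independently for each sample. In the real data 30.1% of probes passed, and the slide 1 minus slide 2 difference correlated between groups. The simulated rates of calls and of false calls need not carry over to the real fit. Python 3.11.15, pandas 2.3.3, numpy 2.4.6 and matplotlib 3.10.9 made tables and plots.

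The genes printed were the 15 largest held rises and falls, at most 4 held members each way per list with the larger lists' other held members beside them, the 16 genes fixed by name and the 5 largest rises and falls of non-coding probes. Members, the 36 lists and the rule were chosen with earlier results of these data known. Replicate numbers did not pair the samples: deviations of same-numbered insusceptible and control arrays correlated between -0.039 and 0.13. The files hold no mean signal, so normexp used the median signal and the median background. Alternatives were quantile normalization, normexp, other filters, percentiles and probe rules, the deposited table, other sample units and leaving out arrays. The number of arrays limits the precision. Some genes that the rule names are not reported here.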

Additional observations from a re-analysis of the deposited data

Results flagged for a closer look

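In 6 of 88 groups of 4 arrays tested (for the largest rises and falls and the genes fixed by name), the highest or lowest array lay apart from the other 3 by more than Dixon's critical value for 4 samples, which chance gives in about 1 of 20 groups. All are log2 levels relative to the 75th percentile. Haptoglobin, Hp, was at -1.852 on insusceptible array 3, with the others between -1.915 and -1.907. Among control arrays, Sik1 was low on array 2 at -7.225 (others -6.787 to -6.73), near background. Bbx was high on array 2 at -5.683 (others -6.247 to -6.214), Prlr was high on array 2 at -1.963 (others -2.064 to -2.048), Mfrp was low on array 3 at 3.717 (others 3.848 to 3.873), and Trmt1 was low on array 1 at -5.945 (others -5.645 to -5.605). In each of these genes the insusceptible and control arrays still did not overlap.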

How the results depend on the processing

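The 5372 probes and 3269 genes past the threshold, and the 3464 probes held, rose most with what counted as a sample. They were 13038, 8266 and 9376 with 16 independent arrays, 10410, 6504 and 7314 with slide as a random block, and 12684, 8040 and 9050 with the replicate number as a block. That block is given although the numbers do not pair the samples. With control and insusceptible samples alone they were 1897, 1022 and 1161. Leaving out single arrays or one control slide gave 1601 to 5518 probes, 784 to 3343 genes and 882 to 3523 held probes, the lowest without control slide 1. Without slide 2 they were 2079, 1143 and 1017. Planned normexp with the 75th percentile gave 0, 0 and 0 in limma (867 probes at an unadjusted p under 0.05), its background fit having failed on control array 3 and insusceptible array 2. On the other 14 arrays, an alternative chosen after seeing the data, it gave 9593 probes and 5597 genes. With no filter on dim probes 5746 were higher and 2094 lower.

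Of 163 named genes past the threshold, 84 missed it with a control slide left out, and 8 turned sign somewhere. Under planned normexp and its 14-array form with the 75th percentile these were Grid1 (0.607 and 0.807), Homer3 (0.211 and 0.275), Hsd11b2 (0.318 and 0.407), Htr1b (0.0265 and 0.0665), Ccl5 (0.116 and 0.125), Il6 (0.14 and 0.195) and Hspb3 (0.473 and 0.614), and P2ry12 in the deposited table (0.564). Of genes not past it, Fos turned (0.16 and 0.196) under the same settings, and under quantile normalization, normexp with it, the deposited table and the 14-array form Nr3c1 (0.15, 0.089, 0.154 and 0.127) and Gfap (0.0974, 0.0615, 0.0966 and 0.0488). Some of these settings hold fewer samples by construction, and why the counts changed was not tested. Dim probes near background are the least certain.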

Other observations

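A few genes outside the gene lists separated the stressed groups. Besides the globins and Vegfb, the genes held between insusceptible and depression-susceptible samples were the homeobox gene Hoxc4 (-2.17), the exonuclease relative Rexo4 (-1.93) and the open reading frame C9h6orf141 (2.05). The level of Rexo4 was -1.23 in insusceptible samples, 0.73 and 0.67 on the depression-susceptible slides, -0.32 on the anxiety-susceptible slide and -0.40 in controls. That of Hoxc4 was -5.24 in insusceptible samples, -3.08 and -3.06 on the depression-susceptible slides, -4.49 on the anxiety-susceptible slide and -4.04 in controls. In both genes the control level lay between those of the insusceptible and depression-susceptible samples. Aox1, an aldehyde oxidase, was at 1.31, 1.40, 1.38 and 1.39 on insusceptible arrays, against 0.12, 0.14, 0.07 and 0.10 on control arrays, a difference of 1.26 (SE 0.09, limma's adjusted p = 0.00796), while anxiety-susceptible samples averaged -0.94 and depression-susceptible samples 1.19 on both slides.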
